A study of Mus musculus with 6 samples.

Results

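The genes described here encode the mitochondrial ribosome and the factors that copy and transcribe the mitochondrial genome. They were the protein-coding genes of the count table whose symbol begins with Mrpl or Mrps followed by a number, together with Polrmt, Tfam, Tfb1m, Tfb2m, Polg, Polg2, Twnk, Tefm and Mterf1a. This gave 87 of the 24421 genes in the table: 49 Mrpl genes, 29 Mrps genes and 9 genome expression genes. RNA-seq counts came from mouse germinal vesicle oocytes, the fully grown oocytes arrested before meiotic resumption, of 2 genotypes with 3 libraries each. DKO mice were Ring1 -/-, had floxed Rnf2 (Rnf2 f/f) and carried Zp3-cre, a recombinase transgene that the oocyte-specific Zp3 promoter drives during oocyte growth. SKO mice were Ring1 -/- with Rnf2 f/f alleles and no transgene. Ring1 and Rnf2 encode the catalytic E3 ligases of Polycomb repressive complex 1, so both genotypes lacked Ring1 and the comparison asks what the loss of Rnf2 adds. The transgene was present in DKO alone, so its own effect and that of the deletion cannot be told apart. Each library held 15 oocytes of 1 female of about 3 months on a mixed FVB, 129/Sv and C57BL/6J background.

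Mitochondria keep a small circular genome that encodes core subunits of the respiratory chain and the RNAs needed to translate them. Every protein of the ribosome that translates these messages, and every factor that replicates and transcribes the genome, is encoded in the nucleus and imported. The oocyte accumulates mitochondria and mitochondrial DNA during growth and passes them to the embryo, which inherits its mitochondria through the egg.

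Total counts ran from 15521975 to 26652745 per library. Rnf2, the targeted gene, had 989, 654 and 589 counts in DKO, against 5041, 3901 and 4563 counts in SKO. Ring1, null in both genotypes, had 5, 13 and 1 counts in DKO, against 1, 6 and 3 counts in SKO. Of 14845 genes tested, 17.3% were called higher in DKO and 7.41% lower (edgeR quasi-likelihood test, Benjamini-Hochberg adjusted p under 0.05, the rule for every call below). The summed level of 12 oocyte markers was 11399 to 14896 CPM (depth-scaled counts) in DKO and 19784 to 20759 CPM in SKO, with 7 markers called lower. The summed level of 14 granulosa and cumulus markers was 189 to 220 CPM in DKO and 110 to 135 CPM in SKO, with 5 of 11 tested markers called higher, 1 called lower and Ptx3 at 0 counts. That of 12 theca, stroma and endothelium markers was 130 to 138 CPM in DKO and 118 to 157 CPM in SKO, with 5 of 9 tested markers called higher and 1 lower. That of the 9 blood and immune markers in the table was 3.99 to 5.52 CPM in DKO and 2.88 to 4.51 CPM in SKO, with no call among 2 tested and with Hba-a1 and Hbb-bs at 0. The part of these markers in the results below was not tested.

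All calls among the mitochondrial genes were falls, led by the RNA polymerase gene Polrmt, and most members had small negative estimates. Of 86 tested members, 0 were called higher, where the share over all tested genes was 17.3%. Called falls numbered 7, or 8.14% of the members, close to the 7.41% of all tested genes. At an unadjusted p under 0.05, 2 members were higher and 12, or 14.0%, lower, against 23.0% and 14.2% of all tested genes. By the DESeq2 Wald test 0 members were called higher and 8, or 9.30%, lower, against 19.4% and 10.7% of all tested genes. The median log2 fold change (DKO over SKO, as throughout) was -0.21 over the members and 0.04 over all tested genes. Estimates lay below 0 for 67 members, or 77.9%, against 47.6% of all tested genes. All 3 DKO libraries lay below all 3 SKO libraries for 29 members, or 33.7%, against a background of 19.6% of all tested genes. The opposite separation held for 4 members (Tfb2m, Mrpl15, Mrpl36 and Mrps30), or 4.65%, against a background of 24.7%. The 95% interval of the fold change ended below a doubling for 75 of the 86 members, and the same held for 58.8% of all tested genes. It began above a halving for 52 members. The whole interval lay inside a 2-fold change either way for 43 members, or 50%, against 36.4% of all tested genes. The remaining member, Mrpl23, a large-subunit protein gene, was below the filter, with 1 count summed over DKO and 4 counts summed over SKO.

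**Figure D1:**
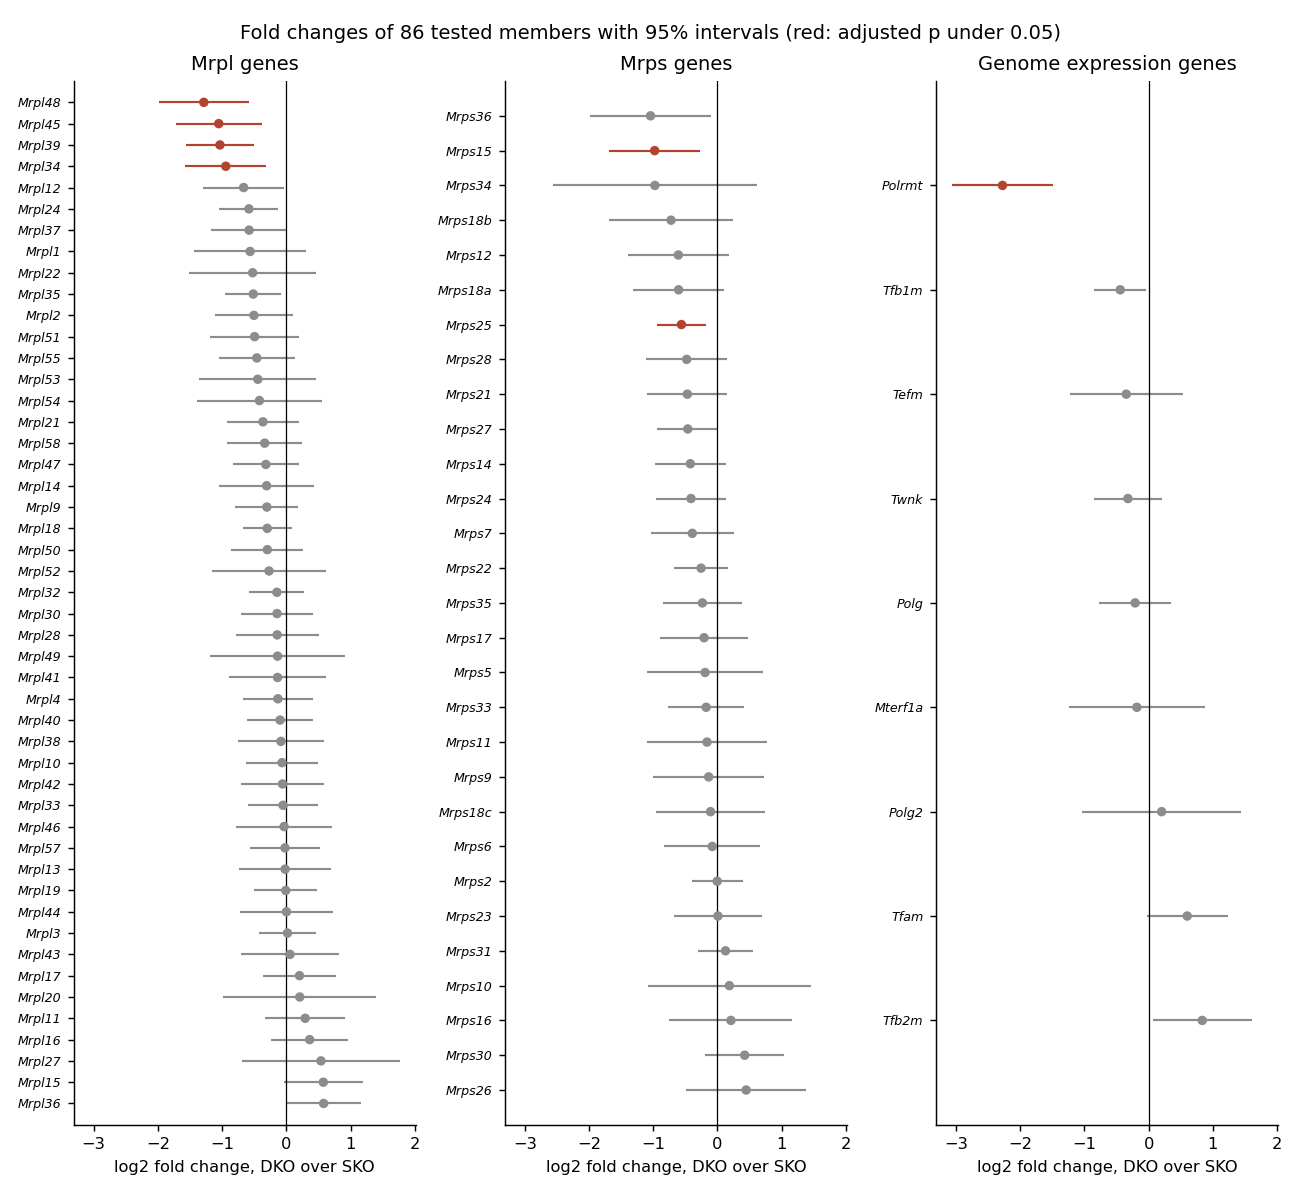
Log2 fold change of the 86 tested members, DKO over SKO (x axis), with 95% intervals as lines; members run down the page by estimate in panels for Mrpl, Mrps and genome expression genes. Red marks the 7 called members, all to the left of 0, from Polrmt at -2.28 to Mrps25 at -0.56.

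Polrmt showed the largest change of all members. It encodes the mitochondrial RNA polymerase, the single enzyme that transcribes the mitochondrial genome and that also makes primers for its replication. The gene lies on chromosome 10, 79736125 to 79746604 (GRCm38, RefSeq annotation). It had 41, 107 and 166 counts in DKO, against 559, 503 and 527 counts in SKO. On the CPM scale this was 2.34, 5.03 and 6.45 in DKO and 22.5, 23.2 and 21.7 in SKO. Every DKO library was well below every SKO library, and the DKO libraries were spread more widely than the SKO libraries. The mean was 4.60 ± 2.09 CPM in DKO against 22.4 ± 0.76 CPM in SKO (SD, n = 3 mice each), leaving 20.7% of the SKO level by the fitted fold. The log2 fold change was -2.28 (SE 0.36, 95% interval -3.07 to -1.48, adjusted p = 0.00133, edgeR). It stayed called under all 17 alternatives tried, between -2.61 and -1.97. Each library is a pool of oocytes, so less Polrmt RNA in every oocyte and loss from some of them cannot be told apart.

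No other genome expression gene was called. Tfam, which packages mitochondrial DNA and helps open its promoters, had 53.1, 42.9 and 28.7 CPM in DKO and 34.7, 28.0 and 19.6 CPM in SKO. The genotypes overlapped, and the log2 fold change of 0.60 was not called (SE 0.28, 95% interval -0.03 to 1.23, adjusted p = 0.152, edgeR). Without DKO replicate 3, the lowest of its genotype, Tfam was called higher (0.80, adjusted p = 0.0473, edgeR). Tfb2m, which melts the promoter together with Polrmt and Tfam, had 19.0, 9.63 and 8.93 CPM in DKO and 6.08, 7.32 and 7.60 CPM in SKO. All DKO values were above all SKO values, with DKO replicate 1 far above the others, and the log2 fold change of 0.83 was not called (SE 0.35, 95% interval 0.07 to 1.60, adjusted p = 0.106, edgeR). Without DKO replicate 1 the estimate for Tfb2m was 0.40.

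Tefm, the elongation factor of the polymerase, had 6.09, 4.09 and 3.65 CPM in DKO and 8.41, 5.30 and 3.86 CPM in SKO. The groups overlapped, with a log2 fold change of -0.35 (95% interval -1.23 to 0.53, adjusted p = 0.564, edgeR). Mterf1a, a transcription termination factor, was low in both genotypes, at 1.60 ± 0.51 CPM in DKO against 1.81 ± 0.038 CPM in SKO (SD, n = 3). Its level is uncertain because mice carry the close copy Mterf1b. Tfb1m, which in spite of its name methylates the small ribosomal RNA, had 33.9, 34.0 and 33.5 CPM in DKO and 50.1, 41.6 and 46.2 CPM in SKO. The groups did not overlap, and the log2 fold change of -0.44 missed the threshold (SE 0.18, 95% interval -0.85 to -0.04, adjusted p = 0.104, edgeR).

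The replication enzymes were measured without a call. Polg, the catalytic subunit of the mitochondrial DNA polymerase, had 15.2 ± 3.55 CPM in DKO against 17.6 ± 0.37 CPM in SKO (SD, n = 3), a log2 fold change of -0.21 (95% interval -0.77 to 0.35). Twnk, the replicative helicase, had 19.7 ± 4.42 CPM in DKO against 24.7 ± 2.13 CPM in SKO (SD, n = 3), a log2 fold change of -0.32 (95% interval -0.85 to 0.20). These intervals leave out a change as large as that of Polrmt. Polg2, the processivity subunit, had few reads, with 16, 23 and 38 counts in DKO and 29, 27 and 15 in SKO, and its interval from -1.04 to 1.44 allows a change of over 2-fold either way. The difference between Polrmt and its partners was not tested as such.

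**Figure D2:**
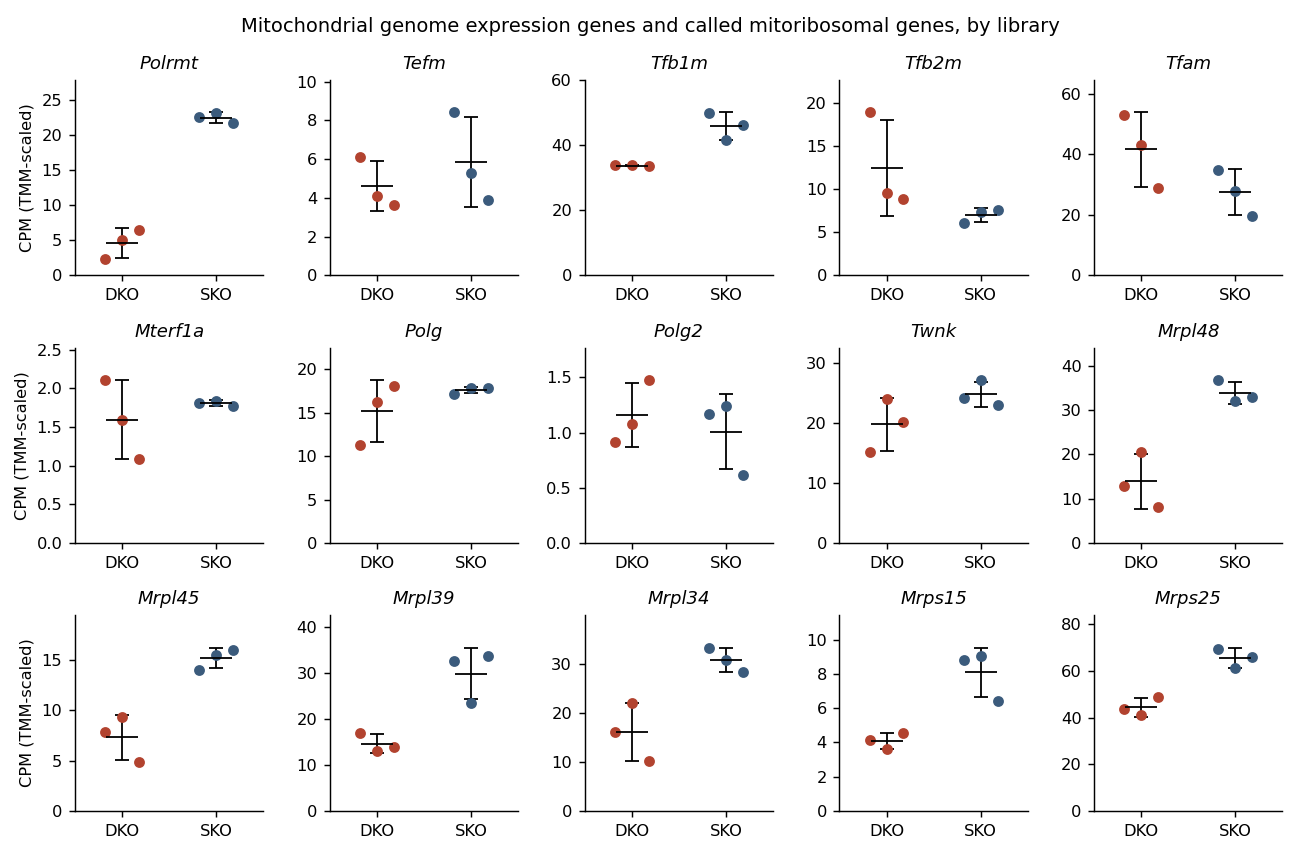
CPM on TMM-scaled libraries (y axis, from 0) of the 9 genome expression genes and the 6 called mitoribosomal genes in each of the 3 DKO libraries (left, red) and 3 SKO libraries (right, blue). Bars give mean and SD; DKO and SKO points are wholly apart for Polrmt, the 6 called mitoribosomal genes, Tfb1m and Tfb2m, and interleave, among others, for Tfam, Tefm and Polg2.

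Promoter sequence differed among these genes. RefSeq promoter windows (GRCm38.p6, 250 bases before to 50 after the annotated start) were matched for 78 of the 87 members. Strings for 3 factors known in mammals as regulators of mitochondrial gene promoters were searched on both strands, and no string contains another: GCGCATGCG for NRF1, CCGGAAGT for the ETS factor GABPA and AAGATGGCG for YY1. The ETS string was in a window of 17 members, or 21.8%, against 8.40% of tested protein-coding genes and 4.31% of all genes in the promoter table. Among the genome expression genes it was in 5 of 9 (Tfam, Tefm, Polg, Twnk and Mterf1a). The NRF1 string was in 8 members (Mrpl9, Mrpl10, Mrpl17, Mrpl22, Mrpl32, Mrpl39, Mrps18b and Tfb2m), or 10.3%, against 3.801% of tested protein-coding genes and 1.95% of all genes. The YY1 string was in 8 members (Mrpl35, Mrpl36, Mrpl37, Mrpl42, Mrps11, Mrps18a, Mrps24 and Mrps27), or 10.3%, against 3.20% of tested protein-coding genes and 1.64% of all genes. These shares depend on the length of the string: with 1 more base at the 3′ end, searched first, the NRF1 string was in 3 members, or 3.85%, against 2.11% of tested protein-coding genes, and the YY1 string in 5, or 6.41%, against 2.16%. A gene counts once if any of its windows holds the string. The YY1 matches of Mrpl35, Mrpl37, Mrpl42, Mrps18a, Mrps24 and Mrps27 began after the annotated start, at 23, 26, 27, 11, 36 and 14. Those of Mrpl36 and Mrps11 began before it, at -31 and -108. The YY1 string holds the letters ATG, and whether its matches lie at a coding start was not tested. Of the 7 called members, Mrpl39 held the NRF1 string and Mrpl48 the ETS string in 1 of its 4 windows, while the other 5 held none of the 3. Windows of Polrmt, as the largest fall, of Tfam, as a partner without a call, and of Mrpl39, as a called mitoribosomal gene, are shown, all on the minus strand and 5′ to 3′, with matched strings in capitals. They span chr10:79746532-79746831, chr10:71237995-71238294 and chr16:84735195-84735494.
Polrmt: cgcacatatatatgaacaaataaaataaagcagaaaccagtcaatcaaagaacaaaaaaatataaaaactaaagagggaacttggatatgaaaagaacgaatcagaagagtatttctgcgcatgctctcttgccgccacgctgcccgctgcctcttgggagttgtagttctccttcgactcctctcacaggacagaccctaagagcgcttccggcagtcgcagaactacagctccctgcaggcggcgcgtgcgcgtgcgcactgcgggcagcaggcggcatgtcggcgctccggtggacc
Tfam: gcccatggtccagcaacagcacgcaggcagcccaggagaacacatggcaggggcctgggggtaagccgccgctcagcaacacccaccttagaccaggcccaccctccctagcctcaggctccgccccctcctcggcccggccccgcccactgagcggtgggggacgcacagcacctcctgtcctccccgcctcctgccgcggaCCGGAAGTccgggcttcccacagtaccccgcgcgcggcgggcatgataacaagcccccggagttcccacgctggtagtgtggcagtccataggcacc
Mrpl39: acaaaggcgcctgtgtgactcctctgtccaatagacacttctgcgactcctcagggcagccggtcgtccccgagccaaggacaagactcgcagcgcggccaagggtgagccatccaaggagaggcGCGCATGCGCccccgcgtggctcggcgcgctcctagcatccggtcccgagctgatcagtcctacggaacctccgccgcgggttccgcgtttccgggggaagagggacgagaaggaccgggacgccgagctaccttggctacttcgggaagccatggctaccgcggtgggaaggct
The Tfam match starts at -47 relative to the annotated start, and the Mrpl39 match, on both strands in overlap, lies further upstream. Absence of a string says only that these letters are not in that window. Each string is a fixed form, and variants differing in a base were not searched. Windows without a match, that of Polrmt among them, may therefore hold such variants.

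The mitochondrial ribosome is built from a large and a small subunit, in which nucleus-encoded proteins surround RNAs made from the mitochondrial genome. Some of its proteins have counterparts in bacterial ribosomes and others were added in the mitochondrial lineage. Of 48 tested Mrpl genes, 4 were called lower and 0 higher, with a median log2 fold change of -0.15. Of 29 tested Mrps genes, 2 were called lower and 0 higher, with a median of -0.24. Grouped by origin after the values had been seen, genes with a bacterial counterpart gave 2 falls among 45 tested (median -0.16), and mitochondria-specific genes gave 4 among 29 (median -0.26). As shares these were 8.33% of Mrpl, 6.90% of Mrps, 4.44% of the bacterial and 13.8% of the mitochondria-specific genes, on either side of the 7.41% of all tested genes. Mrps18a, Mrps30 and Mrps36 were left out of this grouping, since human structures place the proteins of Mrps18a and Mrps30 in the large subunit and Mrps36 is also assigned to a metabolic enzyme complex. In none of these groups was a member called higher.

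Mrpl48 fell most among the ribosomal genes. It encodes a mitochondria-specific protein of the large subunit (chromosome 7, 100545779 to 100608301). It had 13.0, 20.6 and 8.19 CPM in DKO and 36.7, 32.0 and 33.0 CPM in SKO. Every DKO library was below every SKO library, and DKO replicate 3 was the lowest. The log2 fold change was -1.28 (SE 0.32, 95% interval -1.98 to -0.59, adjusted p = 0.0143, edgeR), and it was called under all 17 alternatives. Its exons overlap 708 bases of Rab6a on the other strand, whose level was 66.6 CPM higher in DKO, the opposite direction, without being called. A RefSeq pseudogene is named after Mrpl48, so its level is uncertain.

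Mrpl39 encodes a mitochondria-specific large-subunit protein related in sequence to threonyl-tRNA synthetase (chromosome 16, 84718281 to 84735244). It had 16.9, 13.1 and 13.9 CPM in DKO and 32.6, 23.5 and 33.7 CPM in SKO, with no overlap. The log2 fold change was -1.03 (SE 0.24, adjusted p = 0.0105, edgeR), and 1 alternative of 17 ended the call (without SKO replicate 3, adjusted p = 0.0509, edgeR). Mrpl45, whose protein anchors the ribosome to the inner membrane near the exit of its peptide tunnel, had 7.80, 9.30 and 4.89 CPM in DKO and 14.0, 15.5 and 15.99 CPM in SKO. These groups were apart as well, with a log2 fold change of -1.05 (SE 0.30, adjusted p = 0.0282, edgeR). Its call was lost without SKO replicates 1, 2 or 3 (adjusted p = 0.0614, 0.0857 and 0.0875, edgeR), and in 5 of 17 alternatives in all.

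The last 3 calls were close to the threshold. Mrpl34, which has a bacterial counterpart, had 16.1, 21.9 and 10.2 CPM in DKO and 33.2, 30.9 and 28.4 CPM in SKO, a log2 fold change of -0.94 (SE 0.28, adjusted p = 0.0357, edgeR). It was not called without DKO replicate 1 (adjusted p = 0.0741, edgeR) or without SKO replicates 1, 2 or 3 (adjusted p = 0.100, 0.0895 and 0.0718, edgeR). With the trend with gene length removed, Mrpl34 was at -0.51 (adjusted p = 0.172, edgeR). Its call was lost in 9 of 17 alternatives in all, among them library totals as scaling (adjusted p = 0.105, edgeR), length and GC trends removed (0.0926; 0.0571 with the replicate block) and thinned libraries (0.0574). Mrps15, a small-subunit gene with a bacterial counterpart, had 4.16, 3.62 and 4.54 CPM in DKO and 8.82, 9.03 and 6.45 CPM in SKO. DKO and SKO did not overlap, and the log2 fold change was -0.98 (SE 0.32, adjusted p = 0.0475, edgeR). Its call was lost without DKO replicates 1 or 2 (adjusted p = 0.0758 and 0.0953, edgeR) and without SKO replicates 1, 2 or 3 (adjusted p = 0.136, 0.161 and 0.0638, edgeR), and in 14 of 17 alternatives in all. Mrps25, a mitochondria-specific small-subunit gene, had 43.5, 41.0 and 48.8 CPM in DKO and 69.6, 61.2 and 66.1 CPM in SKO, the smallest of the called changes at -0.56 (SE 0.17, adjusted p = 0.0392, edgeR). Its call was lost without DKO replicates 1 or 2 (adjusted p = 0.0506 and 0.0719, edgeR) and without SKO replicates 1, 2 or 3 (adjusted p = 0.141, 0.101 and 0.125, edgeR), and in 9 of 17 alternatives in all, among them library totals as scaling (0.127), the stricter filter (0.0525), the replicate block (0.0540) and thinned libraries (0.0509). Exons of Mrps25 overlap 4590 bases of Nr2c2 on the other strand, which differed by -1.85 CPM where Mrps25 differed by -21.2 CPM.

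Outside the calls, Mrps36 had 1.14, 2.11 and 1.98 CPM in DKO and 3.66, 3.68 and 3.49 CPM in SKO, an estimate as large as the called genes at a lower level (log2 fold change -1.04, SE 0.42, adjusted p = 0.0990, edgeR). Mrps36 also has named pseudogenes, which makes its level uncertain. At the other end stood Mrpl36, a large-subunit gene with 11.4, 11.7 and 12.2 CPM in DKO and 8.61, 7.28 and 7.68 CPM in SKO. All of its DKO values were above its SKO values, and its log2 fold change of 0.58 was not called (SE 0.26, adjusted p = 0.131, edgeR). Mrpl15 was at 0.58, Mrpl27 at 0.54 and Mrps26 at 0.45, and none was called. Exons of 25 members overlap another gene of the table, and the sources used here do not say how the counting treated strand. Among them, Mrps34 shares 763 exon bases with Nme3 on the same strand, called lower (-1.24) with 4.58 CPM in DKO and 10.8 CPM in SKO, and 1309 with Mapk8ip3 on the other strand, at 43.6 CPM in DKO and 54.3 CPM in SKO. Its own level is uncertain, and with 0.82 ± 0.58 CPM in DKO against 1.59 ± 0.50 CPM in SKO (SD, n = 3) its log2 fold change of -0.97 had the widest interval of the members (-2.56 to 0.62). Tfb1m and Polg share exon bases with Tiam2 and Fanci on the other strand, both called lower, which differed by -79.4 and -38.6 CPM (DKO minus SKO).

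RNA levels per length were spread widely over the ribosomal genes. In CPM per kilobase of gene length (RPKM), the 77 tested ribosomal genes ran from 0.593 to 77.8 in DKO, with a median of 8.59, and from 0.986 to 95.6 in SKO, with a median of 9.55. Mrpl18, whose protein belongs to the large subunit, was the highest in both genotypes, at 77.8 ± 8.79 RPKM in DKO against 95.6 ± 7.77 RPKM in SKO (SD, n = 3). Its lowest SKO library, at 87.1 RPKM, was above every SKO value of the next gene. Mrpl32 followed at 43.5 ± 3.31 RPKM in DKO against 48.2 ± 5.37 RPKM in SKO, and Mrpl34 at 24.9 ± 9.11 RPKM in DKO against 47.7 ± 3.79 RPKM in SKO, so that these neighbours were within their spread in SKO. The lowest in SKO were Mrps34 at 0.593 ± 0.419 RPKM in DKO against 1.15 ± 0.363 RPKM in SKO, Mrpl13 at 1.04 ± 0.265 RPKM in DKO against 1.05 ± 0.122 RPKM in SKO, and Mrps10 at 1.12 ± 0.598 RPKM in DKO against 0.986 ± 0.129 RPKM in SKO. In SKO these lowest genes did not differ from each other beyond their spread. Between genotypes, Mrps34 had 0.782, 0.883 and 0.112 RPKM in DKO and 1.57, 0.966 and 0.921 RPKM in SKO. Every DKO library of Mrps34 was thus below every SKO library, though the gene was not called. The order of the genes was close to the same in DKO and SKO (Pearson r = 0.960 of log2 RPKM over 77 genes, which share their lengths and libraries and are not independent replicates). The length is the authors' deposited gene length, so a level per length is too low where the transcript present is shorter.

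**Figure D3:**
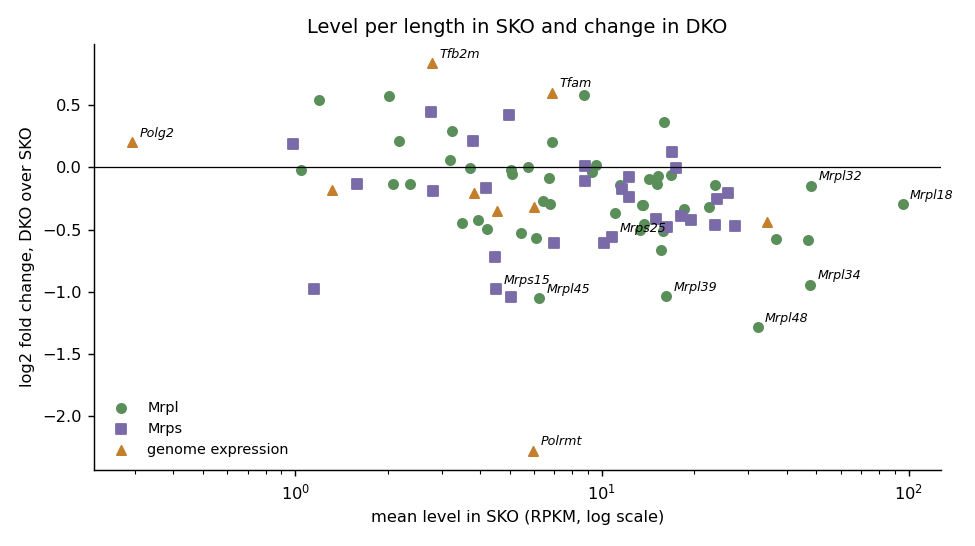
Mean SKO level in RPKM (x axis, log scale) and log2 fold change, DKO over SKO (y axis), of the 86 tested members. Of the 86 points, 62 lie within 0.5 of 0, though above 30 RPKM Mrpl24, Mrpl34, Mrpl37 and Mrpl48 lie below that range; Polrmt stands alone at the bottom at -2.28, and Mrpl18 is the highest in level.

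The summed level of all Mrpl and Mrps genes was 1231, 1368 and 1113 CPM in DKO and 1504, 1476 and 1496 CPM in SKO. Every DKO sum was below every SKO sum, and the DKO sums varied more: 1237 ± 127 CPM in DKO against 1492 ± 14.8 CPM in SKO (SD, n = 3). As a share of raw counts these genes held 0.139%, 0.147% and 0.108% in DKO and 0.147%, 0.139% and 0.138% in SKO, so on that scale DKO replicate 3 alone was low. Member by member, the spread was larger in DKO, with a median coefficient of variation of 25.4% in DKO and 9.21% in SKO. The same held for all tested genes of 10 to 100 CPM, at 23.4% in DKO and 10.8% in SKO. DKO replicate 3 was the lowest DKO library for 49 of 86 members, replicate 1 for 26 and replicate 2 for 11. Mrpl1, a large-subunit gene picked as an example after its values were seen, had 18.7, 26.3 and 6.87 CPM in DKO and 25.8, 25.3 and 25.4 CPM in SKO. Its log2 fold change of -0.56 was not called (SE 0.39, adjusted p = 0.329, edgeR).

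Length set the members apart from most genes. Their median length was 1329 bases, against 3283 bases over all tested genes, and 69.8% of members were under 2000 bases, against 25.5% of tested genes. Shorter genes lay lower in DKO in general. Members under 1000 bases had a median log2 fold change of -0.30, and other tested genes of that length -0.20. Members of 1000 to 2000 bases had a median of -0.33, and other genes -0.05. Members of 2000 to 4000 bases stood at -0.05, and other genes at 0.05. The 9 members over 4000 bases had a median of -0.21, and other genes 0.11, so that the members' medians did not follow length in order.

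The medians also varied with the level in SKO, which is itself the denominator of the fold change. Members under 10 CPM in SKO had a median log2 fold change of -0.14, and other tested genes at that level 0.63. Members of 10 to 30 CPM had -0.30, and other genes -0.03. Members of 30 to 100 CPM had -0.42, and other genes -0.16. No member reached 100 CPM. Among genes that are not members, taken in the same 12 bands of length and level and weighted by the members in each band, 11.7% were called higher and 8.04% lower, where members had 0% and 8.14%. Estimates below 0 made up 54.5% of such genes and 77.9% of the members. In 3 of the 12 bands the members' median was above that of the others: under 1000 bases at 10 to 30 CPM (-0.34 for members, -0.40 for others) and at 30 to 100 CPM (-0.30, -0.48), and 2000 to 4000 bases at 30 to 100 CPM (-0.07, -0.21). Genes of like length and level were thus called lower about as often as the members, and were called higher more often. These are descriptions, and the difference was not tested.

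**Figure D4:**
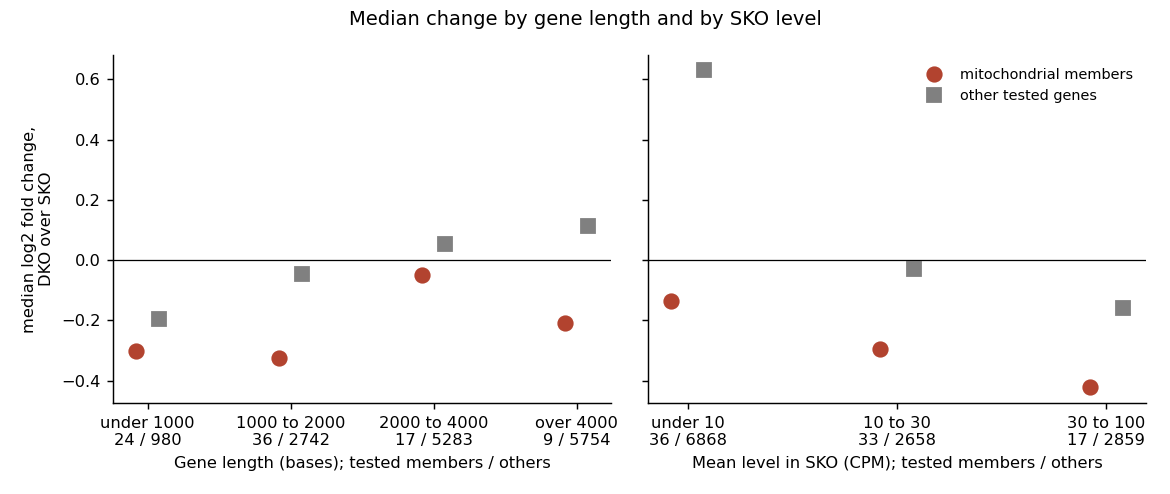
Median log2 fold change, DKO over SKO, of tested members (red circles) and other tested genes (grey squares) by gene length (left) and by mean SKO level (right), with the number of genes under each band. Members lie below the others in each band shown, which takes length or level alone, and the widest gap is at under 10 CPM, -0.14 for members and 0.63 for others.

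The members and short genes in general ranked the DKO libraries in the same order. The median difference of the members from their mean SKO level (log2 of CPM plus 0.5) was -0.20, -0.11 and -0.38 in DKO replicates 1, 2 and 3. For all tested genes under 1000 bases it was -0.16, -0.07 and -0.32 in the same libraries, and for genes over 4000 bases 0.12, 0.04 and 0.16. DKO replicate 3 was the most shifted on all 3 measures and DKO replicate 2 the least. With the trend of level with gene length removed from each library, the members' median log2 fold change was -0.05, and Polrmt stood at -2.35. With trends for length and GC content both removed, the members' median was -0.04 and Polrmt was at -2.53. In that fit 5 members were called lower and 1, Mrpl36, was called higher (0.94, adjusted p = 0.0189, edgeR). These trends were fitted in each library without regard to genotype, so genotype differences that follow length or GC content are removed with them.

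**Figure D5:**
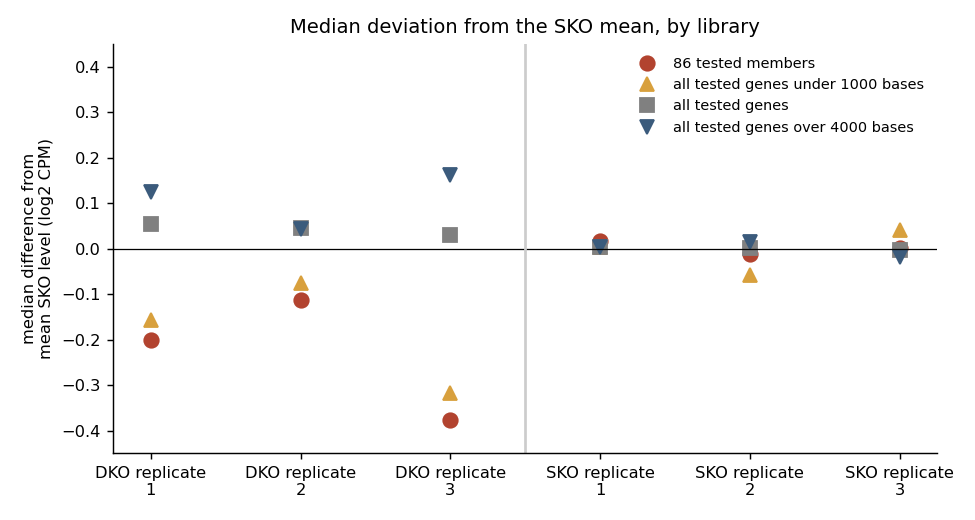
Median difference from the mean SKO level in log2 CPM (y axis) in each library, for the 86 tested members (red), tested genes under 1000 bases (yellow), all tested genes (grey) and genes over 4000 bases (blue). In the DKO libraries members and short genes lie together below 0, lowest in replicate 3. The SKO libraries stay near 0, where their own mean as the reference places them.

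GC content was measured as well, on the GENCODE transcript nearest to the deposited length. Polrmt, at 60.9% GC, ranked at place 2 from the top among the tested members, whose median was 51.3%. The 5 members of 60% GC and over had a median log2 fold change of -0.97, with 2 called lower (Polrmt and Mrpl48). That median is the value of Mrps34, whose level is uncertain. Mrpl54 was at -0.42 and Mrps26 at 0.45, and neither was called. Of 584 other tested genes of 60% GC and over, 5.31% were called lower, and their median was 0.07.

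The wider machinery of mitochondrial gene expression was measured through further lists, which count 120 tested genes in all. Of these, 10 were called lower and 4 higher, 8.33% and 3.33%, with a median log2 fold change of -0.17. Over all tested genes these shares were 7.41% and 17.3% and the median was 0.04, which is the background for each list below. Dap3, a small-subunit protein that binds GTP, was 1 of 5 ribosomal proteins under other names and was called lower, with 41.5 ± 6.29 CPM in DKO against 69.5 ± 2.38 CPM in SKO (SD, n = 3), a log2 fold change of -0.74 (SE 0.18, adjusted p = 0.0147, edgeR). The other 4 (Chchd1, Aurkaip1, Ptcd3 and Gadd45gip1) were not called.

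Of 24 tested ribosome assembly and RNA modification genes, 4 were called lower and 1 higher, with a median of -0.28. Nsun4, a methyltransferase of the small ribosomal RNA that acts in ribosome assembly, had 80.5, 104 and 111 CPM in DKO and 167, 171 and 162 CPM in SKO. Its groups were far apart, with a log2 fold change of -0.76 (SE 0.17, adjusted p = 0.00956, edgeR), called under all 17 alternatives. Ybey, an endoribonuclease needed for small-subunit maturation, was at -1.29, and Ddx28, an RNA helicase of large-subunit assembly, at -0.85. Mtg2, a GTPase of large-subunit assembly that the naming rule left out and that was named after its values were seen, was at -1.62. Mrm1, a methyltransferase of the large ribosomal RNA, rose, with 2.68, 4.93 and 5.09 CPM in DKO and 1.89, 0.461 and 0.904 CPM in SKO (log2 fold change 1.95, SE 0.57, adjusted p = 0.0302, edgeR).

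Translation factors gave 1 fall among 17 tested, with a median of -0.28. It was Mtrf1, a release factor, with 5.51 ± 1.002 CPM in DKO against 12.04 ± 0.86 CPM in SKO (SD, n = 3). Aminoacyl-tRNA synthetases gave 1 fall among 16 tested, with a median of -0.27. It was Fars2, which charges the phenylalanine tRNA, at -0.90. RNA processing genes gave 2 falls among 26, with a median of -0.12: Mto1, a tRNA modification enzyme, at -0.94, and Fastkd1 at -0.63.

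Replication and maintenance genes beside the members moved both ways, with 2 higher and 1 lower of 20 and a median of -0.02. Top1mt, the mitochondrial topoisomerase, had 53, 59 and 101 counts in DKO and 15, 10 and 4 counts in SKO. In CPM this was 3.24 ± 0.61 in DKO and 0.41 ± 0.22 in SKO (SD, n = 3), a log2 fold change of 2.97 (SE 0.58, adjusted p = 0.00444, edgeR), called under all 17 alternatives. Slc25a33, a pyrimidine nucleotide carrier, rose (2.11) and Lonp1, a matrix protease that degrades Tfam, fell (-0.63).

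Ppargc1a showed the largest change on these lists. It encodes a coactivator of nuclear genes for mitochondrial proteins. It had 126, 176 and 359 counts in DKO and 6, 9 and 7 counts in SKO, or 7.18, 8.27 and 13.9 CPM in DKO and 0.242, 0.415 and 0.288 CPM in SKO. The log2 fold change was 4.95 (SE 0.47, 95% interval 3.90 to 6.00, adjusted p = 6.3e-05, edgeR), called under all 17 alternatives. The 11 other tested regulators were not called, among them Nrf1 at -0.43 (adjusted p = 0.160, edgeR), Gabpa at 0.70 (adjusted p = 0.373, edgeR) and Yy1 at 0.99 (adjusted p = 0.102, edgeR). No row of the count table as used here matched the 13 mitochondrially encoded messages, so they were not analysed.

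Several calls on these lists were lost under an alternative. With library totals as scaling, Fars2 (adjusted p = 0.0648, edgeR), Ybey (0.0520), Ddx28 (0.0517), Fastkd1 (0.180), Lonp1 (0.0997) and Mtg2 (0.0688) were no longer called. Fastkd1 was also lost with the stricter filter (0.0651) and thinned libraries (0.0582), and Mtg2 with voom (0.0545) and thinned libraries (0.0515). Without SKO replicate 1, Dap3 (adjusted p = 0.0657, edgeR), Fars2 (0.0657), Ybey (0.0598), Ddx28 (0.0525), Fastkd1 (0.114), Slc25a33 (0.0665), Mtg2 (0.0549) and Lonp1 (0.0959) were no longer called. Without SKO replicate 2 the calls lost were Dap3 (adjusted p = 0.0568, edgeR), Mtrf1 (0.0526), Fars2 (0.0941), Ybey (0.0703), Ddx28 (0.0624), Mrm1 (0.0946), Mto1 (0.0537), Fastkd1 (0.138), Slc25a33 (0.0658), Mtg2 (0.154) and Lonp1 (0.115). Without SKO replicate 3 they were Dap3 (adjusted p = 0.0563, edgeR), Mtrf1 (0.0648), Fars2 (0.103), Ybey (0.0651), Ddx28 (0.0981), Mrm1 (0.0958), Mto1 (0.0566), Fastkd1 (0.127), Mtg2 (0.0834) and Lonp1 (0.0902). Leaving out DKO replicate 1 ended the calls of Ybey (adjusted p = 0.0603, edgeR), Fastkd1 (0.0614), Mtg2 (0.108) and Lonp1 (0.0551), leaving out DKO replicate 2 those of Mrm1 (0.0808) and Slc25a33 (0.0829), and leaving out DKO replicate 3 those of Fars2 (0.0511), Mrm1 (0.0620), Mtg2 (0.0839) and Fastkd1 (0.0655). Without DKO replicate 2, Mtg2 was at -2.26.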

How the data were processed

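The authors deposited 1 table of read counts per gene for all 6 libraries, with raw counts and a gene length for each Entrez ID. RNA was amplified with the Ovation v2 kit, per the labels' protocols. Per the submitters' processing notes, the tool was STAR 2.5.0a and the genome GRCm38, also given as mm10. The sources used here do not name the counting tool, annotation or strand setting. Of 24421 IDs, 24387 matched RefSeq. Genes were tested with edgeR 4.0.16 (R 4.3.3): filterByExpr (minimum count 10, minimum total 15), TMM scaling, quasi-likelihood test, Benjamini-Hochberg adjustment over 14845 genes, and only DKO and SKO in the fit. CPM uses TMM-scaled totals, and RPKM divides CPM by the deposited length. A floor of 3 counts is 0.113 to 0.193 CPM and covers counting error only, since amplified reads are not independent molecules. Each library is 1 mouse. The fit was tested on simulated data. Alternatives were DESeq2 1.42.0, limma 3.58.1 (voom), other scalings and filters, removal of length and GC trends (mgcv 1.9.3), thinning, a replicate block and leaving out each library. The text names all genome expression genes, all called ribosomal genes, the 4 highest and 4 lowest ribosomal fold changes, the 3 highest and 3 lowest ribosomal levels, members below the filter, and up to 4 called genes of each further list. The members and lists were chosen with earlier results of these data known.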

Additional observations from a re-analysis of the deposited data

How the results depend on the processing

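Polrmt and Mrpl48 were called lower under all 17 alternatives. Over all tested genes, 1100 were called lower, against 596 with library totals alone as scaling and 1799 with the replicate block and the length and GC trends removed, and 434 to 1501 with 1 library left out. Library totals moved the median log2 fold change of all genes to 0.20 and that of the members to -0.069. The members' median was -0.054 with the length trend removed, -0.044 with length and GC trends removed and -0.049 with the replicate block added to these. Members called lower numbered 3 with library totals, 3 with libraries thinned to the smallest and 2 to 8 with 1 library left out. Members called higher numbered 1 (Mrpl36) in each of the 3 fits that removed the length trend, and 0 to 1 with 1 library left out. Some estimates near 0 changed sign: Mrpl32 was 0.022 with library totals and 0.24 in each of the 3 fits that removed the length trend. Mrpl18 was 0.020 with the length trend removed, and 0.027 without and 0.028 with the replicate block when the GC trend was removed too. Mrpl13 was 0.16 with library totals, 0.034 with the stricter filter, 0.10 with thinned libraries and -0.13 to 0.17 with 1 library left out. With 1 library left out, Mrps10 ran from -0.30 to 0.51, Polg2 from -0.065 to 0.37 and Mterf1a from -0.43 to 0.025. The causes were not tested.

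The main fit did not pair the libraries by replicate number. Same-numbered DKO and SKO libraries correlated at 0.139, 0.0773 and 0.0479 in their deviations from the group means, each library best with its own number, which is a hint from the data and not from the design. With the replicate block, 2651 genes were called higher and 1364 lower, members gave 0 higher and 5 lower, and their median was -0.27. Genes at a few CPM, such as Polg2 and Mrps34, had intervals that allow changes of over 2-fold.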
